A study of Mus musculus with 6 samples.

Results

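Genes of the secretory pathway and of vesicle trafficking were followed in cultured smooth muscle cells of the mouse airway, comparing cells with a transgenic excess of the beta2-adrenergic receptor and nontransgenic cells. The genes were chosen by symbol, with no use of measured values: subunits of the COPI, COPII and clathrin coats and their adaptors, the Sec61 translocon, SNARE proteins and their regulators, synaptotagmins, caveolins, vacuolar sorting (Vps) proteins, sorting nexins, p24 cargo receptors, TRAPP tethers and the vacuolar proton pump. The rule found 92 genes, measured by 126 probes, and all 92 had values on all 6 arrays. They are 92 of the 5644 genes with a single symbol among the 6807 rows tested. The symbol rule also takes in a few genes with other roles, such as Vps72, a subunit of a chromatin remodelling complex.

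The transgenic cells came from mice that overexpress the beta2-adrenergic receptor (labelled 2AR-OE and TG), the nontransgenic cells from mice labelled NTG. Both were primary cultures grown from tracheal explants, begun in medium with 20% fetal calf serum, used between passages 8 and 10, and over 90% smooth muscle by staining for smooth muscle actin, per the labels. The sources used here give no strain, age or promoter of the transgene, and the cells received no agonist that the labels name. Each of the 6 samples is a dual-colour array on which transgenic RNA competed with nontransgenic RNA. The transgenic RNA was in Cy5 for 1A, 1B, 2A and 2B (the Cy5 arrays) and in Cy3 for the dye-swapped 1C and 2C. The number in an array's name, whose meaning the labels leave unsaid, defines its set here. Separate cultures or animals are not named for the arrays of a set; the p-values therefore cover array-to-array spread alone, part or all of which may be technical.

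Values are the deposited log2 ratios, likely of transgenic over nontransgenic RNA. The direction is taken from the dyes of the arrays in the larger orientation. The labels do not state it, and their titles put the nontransgenic RNA first; were the ratio the reverse, every "higher" below would read "lower". Columns 1C and 2C were treated as turned to the direction of the other 4, which the labels do not state either. If they were not turned, the calls below hold a dye bias and the dye term holds the transgenic difference. On the 4 Cy5 arrays, 47 probes of the whole series were beyond 2-fold with the same sign. As deposited, 40 of them kept that sign on both 1C and 2C, and 6 were opposite on both. Whether the columns were turned was not tested. The transcript of the receptor itself was not analysed here. The arrays held values for 8495 to 8555 of 8734 probes. Array 1C stood apart, with a standard deviation of its log2 ratios of 1.04 over all probes, against 0.467 to 0.608 on the other arrays, and with 63 probes at the floor (a ratio of 0.01), against 0 to 10. Where 1C decided the ratio of a gene described at length, the ratio without it is given too.

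Proteins that enter the secretory pathway cross the membrane of the endoplasmic reticulum through the Sec61 channel, leave in COPII vesicles, and are kept in place by retrograde COPI vesicles. Membrane proteins such as the beta2-adrenergic receptor, once internalised through clathrin-coated pits, are sorted in endosomes: retromer, built of Vps35, Vps26 and Vps29, and sorting nexin 27 return the receptor to the plasma membrane, and the ESCRT complexes pass cargo on to the lysosome. SNARE proteins drive the fusion of each vesicle with its target, and the vacuolar proton pump acidifies the compartments. In smooth muscle, caveolin-1 coats the plasma membrane pits called caveolae.

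The promoters shown are those of the retromer pair Vps26a and Vps26b, because the 2 paralogs had ratios of opposite sign, and of the proton pump genes Atp6v0d1 and Atp6v0e, which hold the same 8-letter run as Vps26a. RefSeq windows (GRCm38.p6, 250 bases before to 50 after a start, 300 bases in all) were found for 75 of the 92 genes, in 88 windows. Each is printed 5′ to 3′ on the strand of its gene, and capitals mark CACGTG (E-box), TCACGTGA (the palindrome at the core of elements bound by lysosomal gene regulators) and TGACG (the core of the cyclic AMP response element). The windows lie at chr10:62486756-62487055 (minus strand, Vps26a), chr9:27030045-27030344 (minus strand, Vps26b), chr8:105566015-105566314 (minus strand, Atp6v0d1) and chr17:26676146-26676445 (plus strand, Atp6v0e).
Vps26a: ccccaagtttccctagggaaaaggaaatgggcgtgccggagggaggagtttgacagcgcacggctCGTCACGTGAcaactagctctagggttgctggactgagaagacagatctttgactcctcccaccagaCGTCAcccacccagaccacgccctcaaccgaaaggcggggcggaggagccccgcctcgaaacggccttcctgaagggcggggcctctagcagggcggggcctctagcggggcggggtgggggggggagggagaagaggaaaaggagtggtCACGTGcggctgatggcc
Vps26b: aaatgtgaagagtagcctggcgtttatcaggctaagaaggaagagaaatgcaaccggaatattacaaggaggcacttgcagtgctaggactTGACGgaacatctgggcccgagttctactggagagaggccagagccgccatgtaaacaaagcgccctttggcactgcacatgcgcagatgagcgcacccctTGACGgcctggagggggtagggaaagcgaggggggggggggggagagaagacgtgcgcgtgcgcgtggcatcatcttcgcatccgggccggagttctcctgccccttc
Atp6v0d1: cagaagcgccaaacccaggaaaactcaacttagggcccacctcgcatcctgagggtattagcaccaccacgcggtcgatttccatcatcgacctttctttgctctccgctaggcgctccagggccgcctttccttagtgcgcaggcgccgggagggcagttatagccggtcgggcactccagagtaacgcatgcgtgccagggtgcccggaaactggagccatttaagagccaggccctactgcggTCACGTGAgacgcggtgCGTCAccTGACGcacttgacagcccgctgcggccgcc
Atp6v0e: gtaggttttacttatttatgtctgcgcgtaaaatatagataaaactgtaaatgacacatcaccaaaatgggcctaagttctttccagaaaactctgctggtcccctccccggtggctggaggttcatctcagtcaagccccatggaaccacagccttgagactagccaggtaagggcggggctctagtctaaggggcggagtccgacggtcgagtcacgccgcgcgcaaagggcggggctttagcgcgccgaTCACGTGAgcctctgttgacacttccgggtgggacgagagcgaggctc

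The Vps26a window holds TCACGTGA at positions 68 to 75, counted from the first base printed, and a further CACGTG at positions 283 to 288; TGACG on the other strand overlaps the first. A second, overlapping Vps26a window (chr10:62486549-62486848, not printed) holds another TCACGTGA, at its positions 99 to 106. The Vps26b window holds neither CACGTG nor TCACGTGA, and has TGACG at positions 92 to 96 and 193 to 197. TCACGTGA lies at positions 247 to 254 for Atp6v0d1 and 253 to 260 for Atp6v0e. Searched on both strands, TCACGTGA (which contains CACGTG) was in 5 of the 88 windows (5.7%; Atp6v0d1, Atp6v0e, Sec62 and Vps26a), against 1.0% of all 32851 windows. CACGTG was in 13.6% of the windows of these genes, against 7.2% of all. TGACG was in 29.5% against 20.8%, the full cyclic AMP response element TGACGTCA (which contains TGACG) in 2.3% against 1.8%, and CCAAT in 36.4% against 37.4%. The ER stress response element was in 0 of the 88 windows and 0.1% of all. A match describes the letters of a window and is not evidence of a bound site.

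Few of the trafficking genes differed between transgenic and nontransgenic cells. At an adjusted p under 0.05 (limma, Benjamini-Hochberg over all 6807 rows), 3 of 92 passed: Syt13 and Sec13 fell and Vps26a rose. That is 3.26% of these genes, against 7.11% of all rows; 1 gene was higher, against 4.03% of all rows, and 2 were lower, against 3.09%. At an unadjusted p under 0.05 there were 23 (25%; 9 higher and 14 lower), against 27.7% of all rows. The median log2 ratio was -0.004 for the trafficking genes and 0.002 for all rows, and the median size was 0.126 against 0.173. Of the ratios, 45 were above 0 (48.9%, against 50.3% of all rows) and 47 below. Of the 92 fitted log2 ratios, 86 lay within 0.5 of 0 and 66 within 0.25, and 1 was beyond 2-fold (1.09%, against 2.26% of all rows). A further 10 genes had an adjusted p under 0.1, 4 with a positive and 6 with a negative ratio. Syt13, Sec13, Vps26a and Vps35 were each measured by 1 probe. Of the 27 trafficking genes with several fitted probes, 17 had all probes of the same sign and 10 had mixed signs. The share with the same sign was 63%, against 57.4% of the 1356 such genes in the whole series. In RNA of a whole culture, fewer cells of a type and less RNA per cell cannot be told apart.

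**Figure D1:**
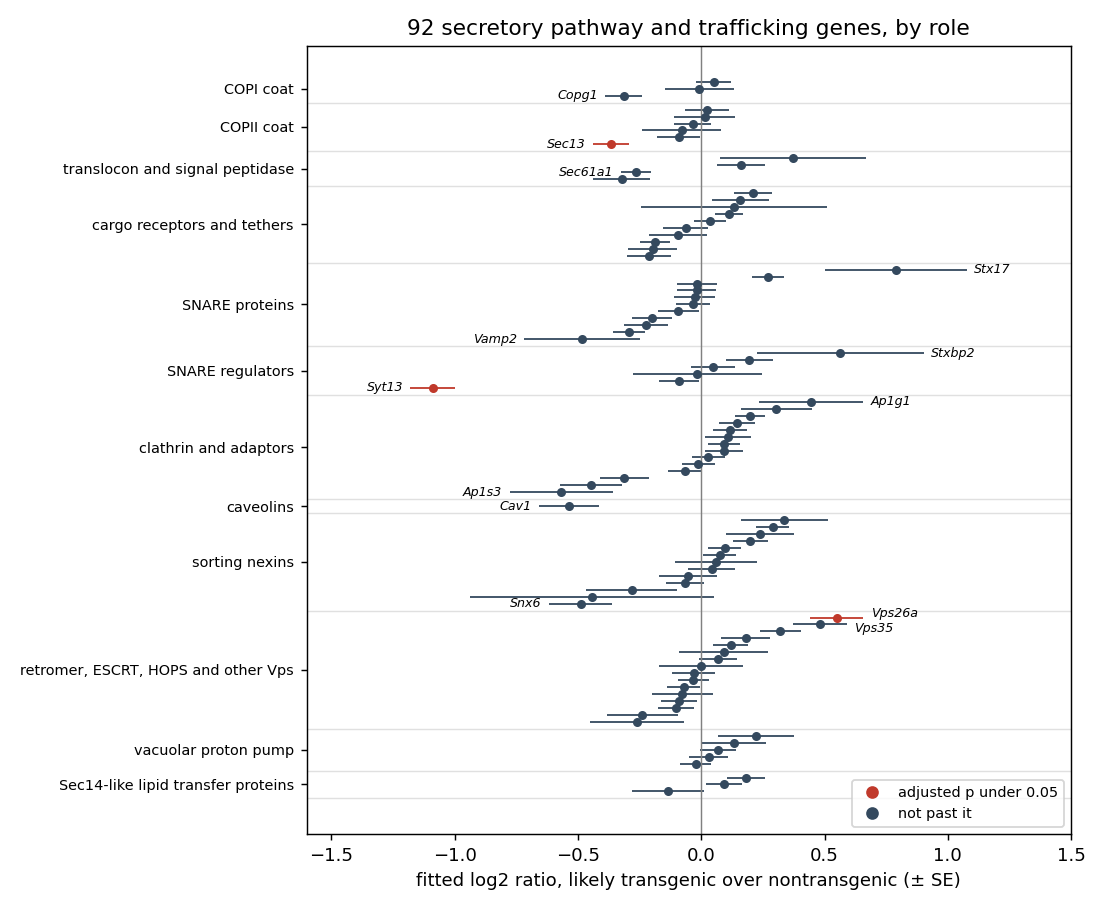
Fitted log2 ratio (likely transgenic over nontransgenic, horizontal axis) of each of the 92 genes, grouped by role; points are fitted values and bars are ± 1 standard error of the limma fit over 6 arrays. Red marks the 3 genes past an adjusted p of 0.05 (Syt13 at -1.09, Sec13 at -0.37 and Vps26a at 0.55), and most other genes lie close to 0.

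At the entrance of the pathway, 2 of the 4 translocon genes had ratios above 0 and 2 below, and none passed. Sec61a1, the main channel-forming alpha subunit, had log2 ratios of -0.18, -0.10, -0.14 and -0.07 on 1A, 1B, 2A and 2B, and of -0.33 and -0.49 on 1C and 2C. All 6 values were below 0, with the swapped arrays the lowest. The fitted log2 ratio was -0.27 ± 0.06 (SE, n = 6 arrays; adjusted p = 0.0576), which did not pass. Sec61a2, its paralog, was also negative on all 6 arrays, higher in set 2 (-0.02, -0.18 and -0.09 on 2A, 2B and 2C) than in set 1 (-0.65, -0.52 and -0.51 on 1A, 1B and 1C), and fitted at -0.32 ± 0.12 (adjusted p = 0.145). Sec62, which helps post-translational translocation, had 0.60 on 1C and -0.03 to 0.08 on the other 5 arrays; the fit was 0.16 ± 0.10, and 0.003 without 1C. Sec61g, the small gamma subunit, had 1.79 on array 1C and values between -0.46 and 0.34 on the other 5. Its fit was 0.37 ± 0.30, and -0.19 without 1C; its 2 probes were fitted at 0.75 and -0.005.

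Among the 6 COPII coat genes, Sec13 fell, and the fits of the other 5 over all arrays stayed within 0.1 of 0 on the log2 scale. Sec13 encodes a subunit of the outer COPII cage that is also part of the nuclear pore. Its log2 ratios were 0.03, -0.15, -0.29 and -0.28 on 1A, 1B, 2A and 2B, and -0.51 and -0.61 on 1C and 2C. The single positive value came from 1A and the lowest 2 from the swapped arrays. The fit gave -0.37 ± 0.07, a 1.29-fold lower level (adjusted p = 0.0400). The call was lost when any of the 6 arrays was left out (-0.40 to -0.34, adjusted p from 0.0514 to 0.124), and on the Cy5 arrays alone, where the ratio was -0.17 (adjusted p = 0.207). Sec31a, the partner of Sec13 in the cage, was at 0.02 ± 0.12 (-0.175 without 1C, where it had 0.66). The cargo-binding and inner-coat genes ran from -0.09 ± 0.09 (Sec24b) to 0.02 ± 0.09 (Sec23b). Without 1C, Sec24b was at -0.21, Sec23a at -0.14, Sec23b at -0.08 and Sec24d at -0.03.

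Of the 3 COPI coat genes, none passed. Copg1, the gamma subunit, had 0.12, 0.04, -0.15 and -0.23 on 1A, 1B, 2A and 2B, and -0.53 and -0.62 on 1C and 2C, with a fit of -0.31 ± 0.08 (adjusted p = 0.0659). Its values, like those of Sec13, were lowest on the swapped arrays and highest on 1A and 1B. Copb1 was at -0.01 ± 0.14 and Cope at 0.05 ± 0.07. The cargo receptors and tethers split evenly, 5 above and 5 below 0, with none past the test. Tmed5, a p24 family cargo receptor, was below 0 on all 6 arrays, between -0.30 and -0.10, and was fitted at -0.19 ± 0.06 (adjusted p = 0.121); of its 3 probes 2 were at -0.26 and 1 at -0.05. Trappc12, a TRAPP tether subunit, had a ratio of 0.11 ± 0.06, and Trappc5 0.21 ± 0.08 (adjusted p = 0.154).

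Syt13 fell the most of the 92 genes. It encodes synaptotagmin 13, an atypical member of a membrane trafficking family whose better known members sense calcium at exocytosis. Its log2 ratios were -0.56, -0.83, -0.99 and -0.80 on 1A, 1B, 2A and 2B, and -1.57 and -1.19 on 1C and 2C. All 6 values lay below -0.5, and both swapped arrays lay below the other 4. The fitted log2 ratio was -1.09 ± 0.09, a 2.13-fold lower level (adjusted p = 0.00423), and the set means were -0.995 in set 2 and -0.985 in set 1. Leaving out each array in turn gave -1.18 to -0.99, past the test each time. The other synaptotagmins were at 0.05 ± 0.09 (Syt11), -0.09 ± 0.08 (Syt3) and -0.02 ± 0.26 (Syt1). Beside Syt13, the 2 measured markers of neural, Schwann and neuroendocrine cells, Uchl1 at -0.46 and L1cam at -0.45, were also called lower, with array medians of the pair from -0.80 to -0.32; their part in the Syt13 result was not tested.

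**Figure D2:**
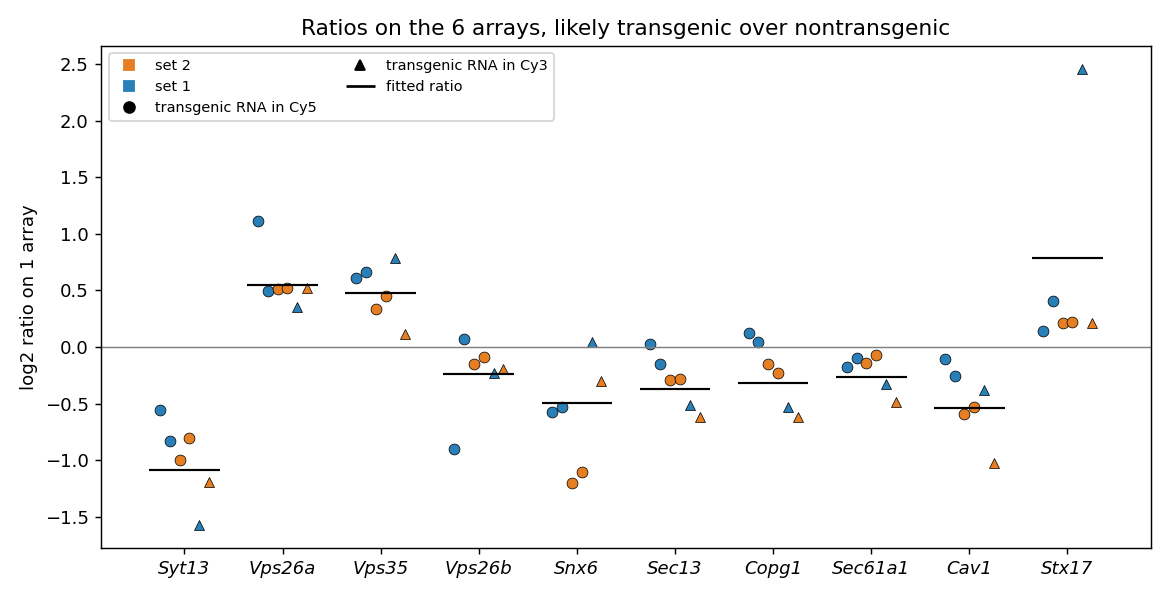
Log2 ratio on each array (likely transgenic over nontransgenic; vertical axis) for 10 of the genes described; circles are the 4 Cy5 arrays, triangles the dye-swapped arrays, orange set 2, blue set 1, and bars the fitted ratio. Syt13 lies below 0 and Vps26a and Vps35 above 0 on all 6 arrays, and the value of Stx17 on 1C, 2.46, stands far above its others.

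Of the 11 SNARE genes, 9 had a fitted ratio below 0 and 2 above, where 50.3% of all rows were above 0. An unadjusted p under 0.05 was found for 5, where 27.7% of all rows had one, and none passed the adjusted threshold. Among these 5 was Stx17, whose ratio rested on array 1C (below). The median was -0.03, and Sec22b, Snap23, Stx2 and Stx4a lay between -0.03 and -0.02. Without 1C those genes were above 0, at 0.072, 0.056, 0.026 and 0.072 in that order. The split of signs among the SNARE genes thus depended on 1C. Stx7, a syntaxin of late endosome fusion, was below 0 on all 6 arrays, from -0.51 on 1C to -0.02 on 1B, and was fitted at -0.29 ± 0.07 (adjusted p = 0.0563). Its 2 probes were at -0.24 and -0.35. The probe at -0.35 had -0.06, 0.03, -0.11 and 0.09 on 1A, 1B, 2A and 2B, and -0.80 and -0.56 on 1C and 2C. Its ratio thus came mostly from the swapped arrays, and the sign on all 6 arrays holds for the probe average. Stx8, its partner in the same fusion complex, was at -0.22 ± 0.09 (adjusted p = 0.174). Stx17 and Stx5a were the 2 above 0. Stx5a, the syntaxin of transport between endoplasmic reticulum and Golgi, had 0.00, 0.12, 0.18 and 0.23 on 1A, 1B, 2A and 2B and 0.33 and 0.48 on 1C and 2C, fitted at 0.27 ± 0.07 (adjusted p = 0.067). Sec22b, which pairs with Stx5a in that step, was at -0.02 ± 0.08, and the plasma membrane SNAREs Snap23 and Stx4a were at -0.03 ± 0.08 and -0.02 ± 0.08.

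Several of the larger fitted ratios rested on array 1C. Stx17, the syntaxin of autophagosome fusion, had 2.46 on 1C and 0.14 to 0.40 on the other 5 arrays, all above 0; the fit was 0.79 ± 0.29 (adjusted p = 0.146), and without 1C it was 0.23. Stxbp2, a Munc18 protein that binds syntaxins, had 2.28 on 1C and -0.39 to 0.31 elsewhere, with a fit of 0.56 ± 0.34 and of -0.10 without 1C. Vamp2, a vesicle SNARE, had -1.55 on 1C and -0.60 to 0.18 elsewhere, with a fit of -0.48 ± 0.23 and of -0.05 without 1C. On 1C, 12 of the 92 genes lay beyond 2-fold (13.04%, against 15.39% of all rows), and on the other arrays 0 to 4 did. Without 2C, the other swapped array, 15 of the 92 genes were called (16.3%, against 24.93% of all rows), among them Stx17 at 1.35, Stxbp2 at 1.23 and Vamp2 at -0.92, with 1C then the only swapped array left.

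Clathrin and adaptor genes made up 14 of the 92, 9 with ratios above 0 and 5 below, none past the test, with a median of 0.09. Cltc, the heavy chain, was at 0.12 ± 0.07. Cltb, a light chain, was below 0 on all 6 arrays, from -0.66 on 1B to -0.12 on 2B, and was fitted at -0.31 ± 0.10 (adjusted p = 0.115). The AP-2 subunits of endocytosis from the plasma membrane were close to 0 (Ap2a2 -0.01 ± 0.07, Ap2m1 0.11 ± 0.09 and Ap2s1 0.03 ± 0.07). AP-3 sorts cargo to lysosomes and related organelles. Its medium chain Ap3m1 was below 0 on all 6 arrays, from -0.81 on 2B to -0.05 on 1A (-0.45 ± 0.12, adjusted p = 0.088), and its small chain Ap3s2 was above 0 on all 6, from 0.08 to 0.28 (0.20 ± 0.06, adjusted p = 0.105). Of the AP-1 genes of the Golgi and endosomes, Ap1g1 had 1.72 on 1C and -0.10 to 0.10 elsewhere, and Ap1s3 had -2.06 on 1C and -0.51 to 0.41 elsewhere; the fits of 0.45 ± 0.21 and -0.57 ± 0.21 became 0.04 and -0.18 without 1C, and 0.85 and -0.95, both called, without 2C.

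Cav1, the structural protein of caveolae and the only caveolin gene among the 92, was below 0 on every array. Its log2 ratios were -0.10, -0.25, -0.59 and -0.53 on 1A, 1B, 2A and 2B, and -0.38 and -1.03 on 1C and 2C. Within each orientation the set 2 values were lower than those of set 1, with set means of -0.72 in set 2 and -0.24 in set 1. The fit was -0.54 ± 0.12 (adjusted p = 0.056), just short of the threshold. Its 2 probes were at -0.64 ± 0.09 (adjusted p = 0.0174 when fitted alone) and -0.44 ± 0.16 (adjusted p = 0.155). The 4 measured markers of endothelial cells, a cell type rich in Cav1, had ratios below 0, with a median of -0.45 and array medians from -0.63 to 0.02. They were uneven: Cdh5 -0.835, Eng -0.52, Tek -0.37 and Tie1 -0.02. Unlike Cav1, Cdh5 and Eng were lower in set 1 (means -1.24 and -0.95) than in set 2 (-0.15 and -0.03). Tie1 had -0.04 in set 1 and -0.09 in set 2. Tek had -4.585 on 2A, 0.93 on 1C and no value on 2B and 2C. None was called, and their part in the Cav1 result was not tested.

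Retromer gave the only gene called higher. Vps26a, an arrestin-like subunit of retromer, had log2 ratios of 1.11, 0.49, 0.51 and 0.52 on 1A, 1B, 2A and 2B, and 0.35 and 0.52 on 1C and 2C. Every value was above 0, and 1A stood above the other 5, which lay close together. The fit was 0.55 ± 0.11, a 1.46-fold higher level (adjusted p = 0.0395). Without 1A the gene was still called, at 0.47, and without any of the other 5 arrays it was not, with adjusted p-values of up to 0.113 and ratios of up to 0.59. Vps35, the scaffold that holds Vps26, was above 0 on all 6 arrays, with 0.61, 0.66, 0.34 and 0.45 on 1A, 1B, 2A and 2B and 0.78 and 0.11 on 1C and 2C. The fit of 0.48 ± 0.11 had an adjusted p of 0.0568. It passed when 2C was left out (0.65, adjusted p = 0.00928) but not when any of the other 5 arrays was (adjusted p from 0.121 to 0.157), and without 1C the ratio was 0.31.

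Vps26b, the paralog that can take the place of Vps26a in retromer, did not share this. It had -0.90 on 1A and -0.23 to 0.08 on the other 5 arrays, with a fit of -0.24 ± 0.14 (adjusted p = 0.319). These are averages of 2 probes that differed. The first probe was below 0 on every array, from -0.56 on 1C to -0.07 on 2B. Fitted alone it was at -0.29 ± 0.08 (adjusted p = 0.0951), which did not pass. The second had -1.44 on 1A, 0.41 on 1B and -0.23 to 0.10 on the rest, and was fitted at -0.185 ± 0.25 (adjusted p = 0.647). The difference between the paralogs was not tested. Vps35l, the Vps35-like subunit of the related retriever complex, was at 0.12 ± 0.07, with values from 0.29 to 0.42 on the 4 Cy5 arrays and of -0.28 and 0.04 on 1C and 2C. Snx27, the sorting nexin that links the beta2-adrenergic receptor to retromer, averaged -0.05 ± 0.12 over 2 probes of opposite sign, -0.37 ± 0.15 and 0.26 ± 0.14, neither called, and was at -0.17 without 1C.

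The sorting nexins that form tubules with retromer went different ways. Snx1 was above 0 on all 6 arrays (0.01 to 0.43; 0.20 ± 0.07, adjusted p = 0.139). Snx6 had -0.57, -0.53, -1.20 and -1.10 on 1A, 1B, 2A and 2B, and 0.05 and -0.30 on 1C and 2C. It was thus lowest in set 2 with transgenic RNA in Cy5 and near 0 on 1C; the fit was -0.49 ± 0.13 (adjusted p = 0.0772). Snx5, a close relative of Snx6, was at 0.06 ± 0.17. Of all 13 sorting nexins, 8 were above 0 and 5 below, and none passed. Snx10, known for a role in endosome and osteoclast biology, had 0.74, 0.55, 0.56 and 0.47 on 1A, 1B, 2A and 2B but -0.04 and 0.05 on 1C and 2C, with a fit of 0.29 ± 0.07 (adjusted p = 0.0572). Snx8 had -3.34 on 2B, where 1 of its probes lay at the floor, and -0.18 to 0.08 elsewhere; its other probe was at -0.03 ± 0.06.

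Among the other Vps genes, none passed. Vps25, a subunit of ESCRT-II, had 0.63, 0.53, 0.36 and 0.36 on 1A, 1B, 2A and 2B and 0.36 and -0.02 on 1C and 2C (fit 0.32 ± 0.08, adjusted p = 0.0773). Vps36, another subunit of the same complex, was at 0.00 ± 0.17. The ESCRT-I genes Vps37b and Vps37c were at 0.09 ± 0.18 (-0.23 without 1C) and -0.08 ± 0.12, and the ATPases that disassemble the complexes at 0.07 ± 0.08 (Vps4a) and -0.26 ± 0.19 (Vps4b). Vps41 of the HOPS tether, Vps45, which binds endosomal syntaxins, and Vps53 and Vps54 of the GARP tether all lay between -0.10 and -0.03.

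The vacuolar proton pump was close to even. Its 5 genes ran from -0.02 ± 0.06 (Atp6v1c1) to 0.22 ± 0.15 (Atp6v0e2), with 4 above 0 and none past the test. Atp6v0e2 had 1.33 on 1C and was at 0.00 without it. Atp6v0d1 and Atp6v0e, whose windows hold TCACGTGA like that of Vps26a, were at 0.07 ± 0.07 and 0.13 ± 0.13. Of the 3 Sec14-like lipid transfer proteins, Sec14l4 was at 0.18 ± 0.08 (adjusted p = 0.192), with 0.35 to 0.72 on the Cy5 arrays and -0.14 to -0.09 on the swapped ones.

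The dye comparison asks where the ratio depended on which dye the transgenic RNA carried, and its coefficient is Cy5 arrays minus swapped arrays. None of the 92 genes was called for dye (lowest adjusted p = 0.182; 1 of all rows was called), and 23 had an unadjusted p under 0.05 (25%, against 18.2% of all rows). Snx10 had the lowest p, with means of 0.58 on the Cy5 arrays and 0.00 on the swapped arrays. Atp6v0e2 had the reverse order, -0.43 on the Cy5 arrays and 0.88 on the swapped arrays, and so did Vps36, with -0.71 and 0.71. Of the 50 genes with the same sign on all 4 Cy5 arrays, 16 kept it on 1C and 2C alike (32%), 15 were of opposite sign on 1C and 2C alike (30%) and 19 were mixed. Over all rows, 42.7% kept it and 22.5% were opposite. The same sign on all 6 arrays was thus seen for 16 of the 92 genes (17.4%, against 19.7% of all rows), 8 above and 8 below 0.

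**Figure D3:**
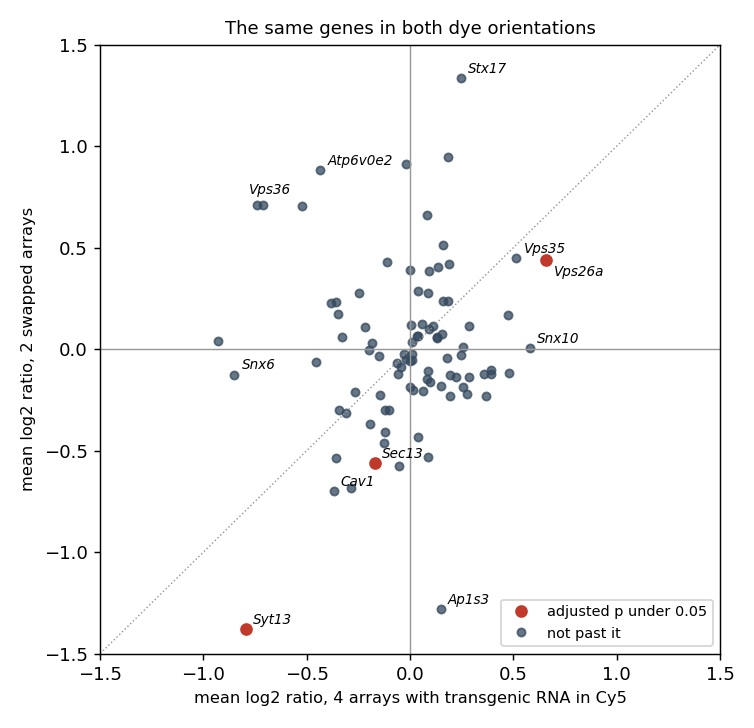
Mean log2 ratio of each of the 92 genes on the 4 Cy5 arrays (horizontal axis) and on the 2 dye-swapped arrays (vertical axis); red points passed the transgenic test. Syt13, Sec13 and Cav1 lie below 0 and Vps26a and Vps35 above 0 in both orientations, and Vps36 and Atp6v0e2 lie on opposite sides.

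Set 2 was also compared with set 1. None of the 92 genes, and none of all rows, was called for the difference of set 2 minus set 1 in limma (lowest adjusted p = 0.0724), and 23 had an unadjusted p under 0.05 (25%, against 23.7% of all rows). Vps36 had the lowest p, with a difference of -0.74 ± 0.10. Its log2 ratios were -1.14, -1.03 and 0.34 on 2A, 2B and 2C, against -0.23, -0.44 and 1.07 on 1A, 1B and 1C, so that the sets differed in both orientations while the mean stayed at 0. Snx5 had -0.44, -0.35 and -0.14 on 2A, 2B and 2C, against 0.50, 0.31 and 0.38 on 1A, 1B and 1C. It is 1 of 6 genes whose signs were opposite in the sets on all arrays (6.52%, against 7.12% of all rows).

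**Figure D4:**
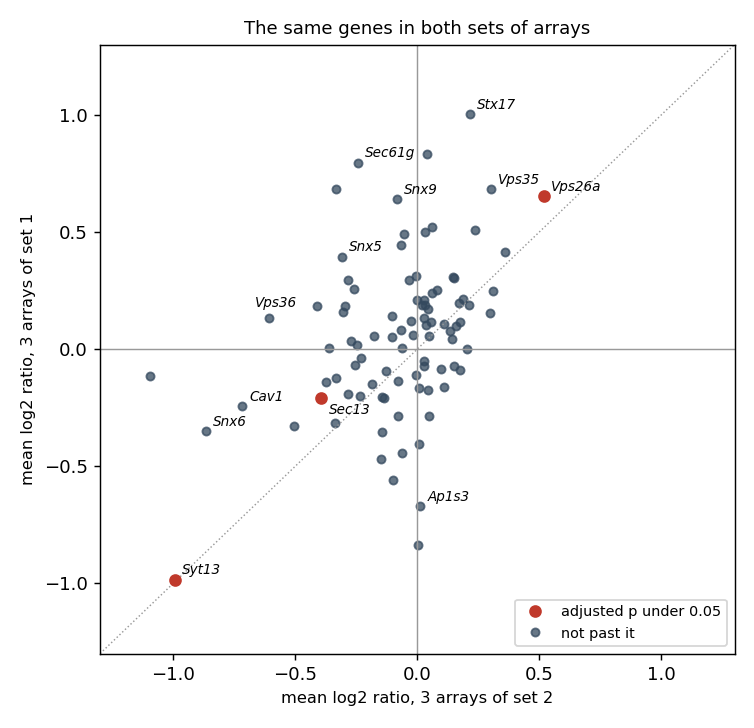
Mean log2 ratio of each of the 92 genes in set 2 and in set 1 (3 arrays each; the axes name the sets); red points passed the transgenic test. Syt13 lies at about -1 in both sets, Vps26a above 0 in both, and Snx5 on opposite sides.

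Beyond the 92 genes, 76 other genes of the same pathways, listed from their known roles, were measured. Of these, 1 rose (1.32%, against 4.03% of all rows) and 1 fell (1.32%, against 3.09%). Ratios were above 0 for 28 (36.8%, against 50.3% of all rows), and the median log2 ratio was -0.05. Ehd4, an ATPase that shapes endosomal membranes during recycling, had 0.89, 0.96, 0.83 and 0.65 on 1A, 1B, 2A and 2B and 0.68 and 0.51 on 1C and 2C, and rose with a fit of 0.72 ± 0.07 (adjusted p = 0.00668). Srprb, which anchors the signal recognition particle receptor, fell at -0.29 ± 0.06 (adjusted p = 0.0461), with its lowest values, -0.54 and -0.51, on 1C and 2C. That call was kept without 2C but lost without any other array (adjusted p from 0.091 to 0.138) and with an estimated correlation within sets (adjusted p = 0.127). The retromer cargo genes Igf2r and Sort1 were at -0.14 and -0.12, and neither was called. Among lists of cell type markers, 1 of 4 smooth muscle markers was called higher, Cnn1 at 0.59, while Smtn at -0.05, Tpm1 at -0.16 and Cald1 at -0.12 were below 0 and not called (median of the 4 -0.09). Of the 6 fibroblast markers, 2 were called higher, Thy1 at 2.73 and Mfap5 at 0.81. Dpt at 1.67 and Lum at 0.70 were above 0, and Pdgfra at -0.02 and Col1a1 at -1.21 below 0, none of them called. The median of the 6 was 0.76, with array medians from 0.15 to 1.16. Of 4 markers each, 1 epithelial marker was called higher, 1 cartilage marker was called lower, and no leukocyte marker was called. Ratios alone were used here, and they give no levels, so the identity of the cells was not checked.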

How the data were processed

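Log2 ratios of transgenic and nontransgenic RNA were measured on 6 dual-colour arrays. The table deposited by the authors holds 1 log2 value for each probe on each array; per the labels' protocols the RNA was reverse transcribed and hybridised competitively. The scanner, the background correction, the normalization and the ratio's direction were not given in the sources used here. Each array's deposited values were already centred near 0. Spot intensities were not used, and the number of arrays, their unequal spread and the 4 to 2 split of orientations limit the precision. Of 8734 probes, 7540 had 1 gene symbol in the platform annotation, 14 several and 1180 none. Probes of a symbol were averaged on each array, and a row was kept where 4 or more arrays, of both orientations, had a value (6807). limma 3.58.1 (R 4.3.3; lmFit and eBayes) was fitted with a transgenic and a dye coefficient over all 6 arrays; a set term gave set 2 minus set 1. Errors are standard errors of that fit, and p-values were Benjamini-Hochberg adjusted over all rows. The fit was tested on simulated data. Other steps used Python 3.11.15 and pandas 2.3.3. Genes described by rule are those called, those with the lowest p of each role and the 4 largest uncalled ratios in each direction. Caveolins and the genes with the lowest dye and set p were added. Genes with probes of opposite sign, each at an unadjusted p under 0.05, were sought, and there were none. Further members were described after their values were seen. The members and lists were chosen with earlier results of these data known.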

Additional observations from a re-analysis of the deposited data

Results flagged for a closer look

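Among the trafficking genes described by rule, 5 had an array that stood apart from the other 5 by more than the critical value of Dixon's test for 6 samples. Ap1g1 lay at 1.72, Ap1s3 at -2.06, Stx17 at 2.46 and Stxbp2 at 2.28 on array 1C, and Vps26a at 1.11 on array 1A. Genes described above outside that rule also had such an array: Sec61g, Sec62 and Sec31a on 1C, Vps26b on 1A and Snx8 on 2B. Over all 92 genes, 15 had such an array (16.3%), 10 of them 1C, 4 of them 1A and 1 of them 2B. The share over all rows with 6 values was 15.3%, so the trafficking genes were near it; for 1C it was 10.9% of these genes, against 11.3% of rows, and for 1A 4.35% against 1.33%. Chance flags about 1 in 20 genes where all 6 values come from 1 normal distribution. The arrays here differ in spread and dye orientation, so that rate need not hold for them. Array 1C had the widest spread of ratios over all probes; its part in these values was not tested.

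In 6 genes every array of set 2 had the opposite sign to every array of set 1. The difference of set 2 minus set 1 on the log2 scale was -0.52 for Copb1 of the COPI coat, -0.59 for Sec23a of the COPII coat, -1.04 for Sec61g of the translocon, 0.27 for the SNARE Snap23, -0.70 for Snx5 and -0.72 for Snx9, a sorting nexin of clathrin-mediated endocytosis. Tested as a set term in limma, none passed: the adjusted p was 0.156 for Copb1, 0.162 for Sec23a, 0.222 for Sec61g, 0.148 for Snap23, 0.0724 for Snx5 and 0.0932 for Snx9.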

How the results depend on the processing

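Of the 3 calls, Syt13 kept its call and sign in every alternative but the one with swapped columns taken as not turned. Vps26a lost its call there too, at 0.11, and without each array other than 1A (0.51 to 0.59; 0.47 and called without 1A), and Sec13 without each of the 6 (-0.40 to -0.34). Vps26a also lost it with array weights (adjusted p = 0.132), the random replicate block (0.139) and set 1 alone (0.124), and Sec13 with no dye term (0.123), the Cy5 arrays alone (0.207), scaled arrays (0.0641), array weights (0.105), the random replicate block (0.105) and set 1 alone (0.101). Counts of trafficking genes called higher and lower, 1 and 2 in the fit reported, were 1 and 2 with floor values missing, with values required on all arrays and with robust variances. They were 2 and 1 with no dye term, 0 and 0 with swapped columns taken as not turned, 8 and 4 on the Cy5 arrays alone, 3 and 1 with arrays scaled to equal spread, 0 and 1 with array weights, and, chosen after seeing the data, 2 and 8 in set 2 alone and 8 and 4 in set 1 alone. All rows rose too: 13.04% of these genes were called on the Cy5 arrays alone, against 15.79% of rows, 10.87% against 13.33% in set 2 alone, 13.04% against 15.63% in set 1 alone and 4.35% against 8.86% with scaled arrays. Leaving out an array gave 0 to 10 higher and 1 to 5 lower, the highest counts without 2C, where 1689 rows were called. The labels do not say that the arrays of a set are paired. Over all rows, the log2 ratios correlated at 0.545 for 1A with 1B and 0.674 for 2A with 2B. For Cy5 arrays of different sets it was 0.365 to 0.424. Between orientations the correlation was 0.08 to 0.17 within a set and 0.029 to 0.138 across sets. The fit reported treats the 6 arrays as independent. With set as a fixed replicate block the counts were 5 and 10 (1168 rows). As a random replicate block, with an estimated correlation of 0.295, they were 0 and 1 (197 rows). The median of the 92 ratios stayed between -0.02 and 0.03 without single arrays. Of the other trafficking genes, 1 to 5 were called higher and 0 to 3 lower without single arrays, and 0 were lower with the random replicate block.

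With swapped columns taken as not turned, ratios turned sign to -0.47 for Ap1g1, 0.71 for Ap1s3, 0.09 for Ap3m1, -0.66 for Atp6v0e2, 0.17 for Cav1, 0.26 for Copg1, 0.20 for Sec13, 0.14 for Sec61a1, -0.54 for Stx17, 0.17 for Stx7, -0.38 for Stxbp2, 0.29 for Syt13, 0.041 for Tmed5 and 0.20 for Vamp2. On the Cy5 arrays alone, Ap1g1 was at -0.021, Ap1s3 at 0.15 and Atp6v0e2 at -0.43, and 1 probe of Ap1g1 alone gave -0.13. Set 2 alone gave -0.11 for Atp6v0e2, -0.066 for Stxbp2 and 0.046 for Vamp2, and set 1 alone 0.37 for Vps36. Without single arrays, Stxbp2 ran from -0.10 to 1.23 and Vps36 from -0.18 to 0.18. Not every gene turned with swapped columns taken as not turned. Sec14l4 (0.30), Snx10 (0.29), Snx6 (-0.36), Vps26a (0.11), Vps35 (0.034) and Vps36 (-0.71) kept their sign. The cause of the changes of sign was not tested. Signal over background is unknown here.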
